A study of Drosophila melanogaster with 6 samples.

Results

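The transcripts described here encode the core machinery that carries messenger RNA along microtubules in Drosophila melanogaster: the adaptors BicD and egl, the dynein subunits Dhc64C and sw with the dynein regulator Lis-1, and the kinesin-1 genes Khc and Klc. These 7 genes were picked by their symbols, not by their values, out of the 13943 features that each library lists. All 7 were among the 7539 genes with enough reads to be tested. The Sdic genes, repeated copies that share sequence with sw, are not counted among them.

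RNA-seq was made from unfertilized eggs collected at 0 to 30 min and pooled at about 20 per collection. The MEK F53S group had 3 libraries from mothers of the genotype MTD>MEK_F53S, and the wild-type MEK group had 3 libraries from mothers of the genotype MTD>MEK. In both groups the germline driver MTD-GAL4 overexpressed a MEK transgene, so the comparison is between an overexpressed RASopathy form and an overexpressed wild-type form, and neither group lacks the transgene. Both constructs sat at the same place in the genome, and all fathers were sterile. The groups come from 2 fly lines, so an effect of the F53S change and one of the line cannot be told apart, and the submitters call the 3 libraries of each group biological replicates.

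Dynein is the motor that walks toward the minus ends of microtubules, and with its partner complex dynactin it carries RNAs from nurse cells into the oocyte. Egl, the protein of egl, binds localisation signals in the RNA, and BicD couples Egl and its cargo to dynein and dynactin. Kinesin-1 walks the other way, toward plus ends, and its heavy chain brings oskar RNA to the posterior pole of the oocyte without needing the light chain. Eggs are laid with these messages already loaded by the mother, so the values below are of the maternal supply of motor transcripts, not of motor protein or of transport.

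Libraries held 37224814 to 48485330 estimated counts in MEK F53S and 37342085 to 48756311 in wild-type MEK. The first principal component (53.6% of the variance) separated the groups, and the second (17.2%) set wild-type MEK replicate 1 apart (-42.4, against 15.8 and 21.5 for the other wild-type MEK libraries). The mitochondrial share of counts was 4.14 to 5.24% in MEK F53S and 7.84 to 10.1% in wild-type MEK. Maternal egg markers were abundant, at 16876 to 18099 CPM (counts relative to the TMM-scaled size of the library) in sum in MEK F53S and 21662 to 22169 in wild-type MEK, with all 12 matched genes tested. Eggshell genes made by follicle cells summed to 0.197 to 0.416 CPM in MEK F53S and 0 to 0.176 CPM in wild-type MEK, with 13 of 19 at 0 in every library. Neuron markers, of interest because neurons are rich in kinesin, summed to 2.02 to 2.90 CPM in MEK F53S and 2.34 to 4.87 CPM in wild-type MEK. Early zygotic genes summed to 4.66 to 19.0 CPM in MEK F53S and 0.940 to 1.42 CPM in wild-type MEK, and the 10 yolk and fat body genes summed to 61.5 to 105 CPM in MEK F53S and 8.87 to 10.97 CPM in wild-type MEK. Nearly all of that sum was apolpp, at 60.3 to 104.2 CPM in MEK F53S and 8.11 to 10.5 CPM in wild-type MEK, and Yp1 and Yp2, genes of yolk protein, were at 0 in every library. Testis genes summed to 66.7 to 83.6 CPM in MEK F53S and 59.9 to 71.3 CPM in wild-type MEK, nearly all from bam, and 10 of 14 were at 0. The part of these markers in the results below was not tested. Dsor1, the fly MEK gene, had 1196 to 1601 CPM in MEK F53S and 1160 to 1489 CPM in wild-type MEK, a row that cannot tell a transgene from the gene of the fly.

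None of the 7 transport genes passed the test between MEK F53S and wild-type MEK eggs at an adjusted p under 0.05. The count was 0 of 7 with edgeR, beside 25.2% of all genes tested, and 0 of 7 with DESeq2, beside 26.7% of all genes. Before adjustment, BicD and Khc, 2 of the 7, were under 0.05 in edgeR, beside 38.3% of all genes. The CPM of the MEK F53S libraries lay wholly apart from that of the wild-type MEK libraries for BicD, Khc and Klc, 3 of 7 beside 42.3% of all genes. Such gaps depend on the scaling. TMM factors were 1.05 to 1.09 in MEK F53S and 0.912 to 0.937 in wild-type MEK, which lowers CPM in MEK F53S relative to library size alone. Over the alternative fits, BicD and Khc came as near to 0 as -0.06 and -0.08 on the log2 scale. The median log2 fold change of MEK F53S over wild-type MEK was 0.04 for the 7 genes and 0.05 for all genes tested, and the median size of the change was 0.27 against 0.35. Even the largest change among the 7, that of Khc, was exceeded in size by 56.6% of all genes. At least 2069 estimated counts stood behind each of the 7 genes in every library, so counting error is small beside the spread between replicates. In these pooled eggs, fewer copies of a transcript in each egg and a different mix of eggs cannot be told apart.

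**Figure D1:**
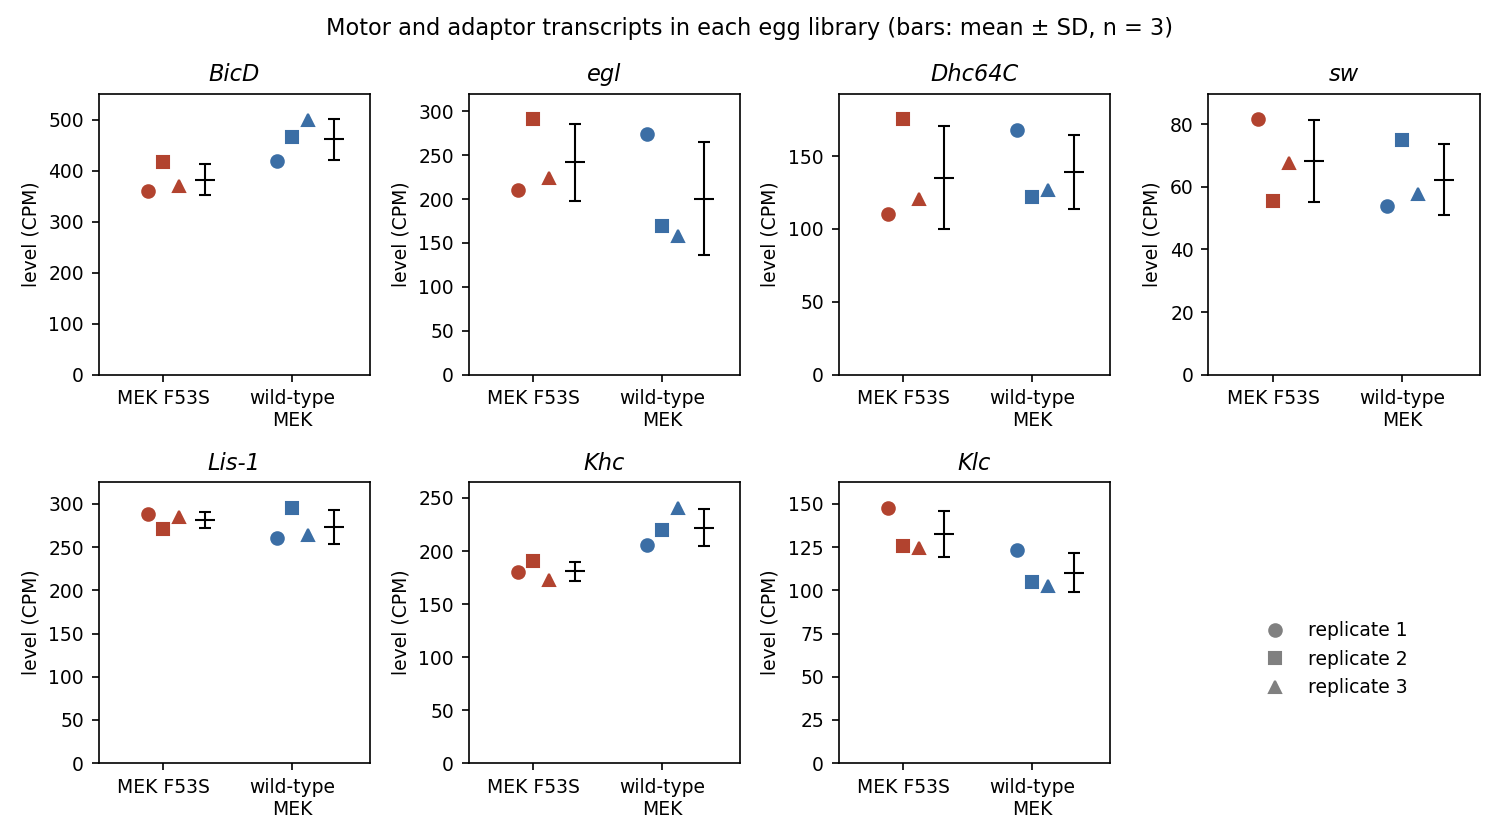
TMM-normalised level in CPM (y axis, from 0) of each of the 7 genes in the 3 MEK F53S libraries (red, left) and the 3 wild-type MEK libraries (blue, right), with the symbol giving the replicate number and black bars the mean ± SD (n = 3). BicD and Khc lie lower and Klc higher in every MEK F53S library, whereas egl and Dhc64C are spread widely inside both groups.

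The adaptors had opposite signs, and neither passed. BicD (FBgn0000183, chromosome 2L, 17459605 to 17473215 in dm6, minus strand) encodes the coiled-coil protein that holds cargo and motor together. Its level was 359.8, 418 and 371 CPM in MEK F53S replicates 1 to 3, against 419, 467 and 499 CPM in wild-type MEK replicates 1 to 3. All MEK F53S libraries lay below all wild-type MEK libraries, but the highest MEK F53S library and the lowest wild-type MEK library almost touch. The means were 383 ± 30.9 CPM in MEK F53S and 462 ± 40.0 CPM in wild-type MEK (SD, n = 3 each), a fold of 0.829 with a 95% interval of 0.697 to 0.987 (log2 fold change -0.27 ± 0.11 SE, edgeR adjusted p = 0.106). Over the 20 alternative fits its log2 fold change ran from -0.37 to -0.06.

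The RNA-binding partner, egl (FBgn0000562, chromosome 2R, 23734904 to 23746829, minus strand), had 209.8, 291 and 224 CPM in MEK F53S, against 274, 169 and 158 CPM in wild-type MEK. Here the groups overlapped because wild-type MEK replicate 1 lay within the range of the MEK F53S libraries, while the other wild-type MEK libraries were below all of them. The means were 242 ± 43.4 CPM in MEK F53S and 200.5 ± 64.3 CPM in wild-type MEK (SD, n = 3 each). The log2 fold change was 0.27 ± 0.21 (SE) and edgeR's adjusted p = 0.390, with a fold of 1.20 and a 95% interval of 0.866 to 1.68. Within groups egl was more variable than 78.6% of the genes tested, and BicD only more than 17.3%.

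Dynein itself showed no called difference in either of its 2 subunits. Dhc64C (FBgn0261797, chromosome 3L, 4807368 to 4825687, minus strand) encodes the heavy chain, which holds the motor domain and hydrolyses ATP. It had 110.1, 175 and 120.2 CPM in MEK F53S, against 168, 122 and 127 CPM in wild-type MEK. One library of each group, MEK F53S replicate 2 and wild-type MEK replicate 1, stood high above its 2 partners, and the groups overlapped fully. The means were 135 ± 35.1 CPM in MEK F53S and 139 ± 25.5 CPM in wild-type MEK (SD, n = 3 each; fold 0.974, 95% interval 0.719 to 1.32, log2 fold change -0.04 ± 0.20 SE, edgeR adjusted p = 0.911). The sign turned without MEK F53S replicate 1, MEK F53S replicate 3 or wild-type MEK replicate 1 (log2 fold changes 0.09, 0.04 and 0.09), and with library size alone as the scaling (0.17) or upper-quartile factors (0.0042). A stretch of 39 exon bases, 0.267% of its exons, is shared with CG18808 on the same strand.

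Lis-1 (FBgn0015754, chromosome 2R, 16178826 to 16185103, plus strand), the fly counterpart of the human lissencephaly gene, encodes a protein that binds the dynein motor and helps it assemble with dynactin. It was the steadiest of the 7 by reads: 289, 271 and 285 CPM in MEK F53S, against 261, 296 and 264 CPM in wild-type MEK. The groups overlapped, and their means were 282 ± 9.10 CPM in MEK F53S and 273 ± 19.5 CPM in wild-type MEK (SD, n = 3 each). The log2 fold change was 0.04 ± 0.11 (SE; fold 1.03, 95% interval 0.875 to 1.21, edgeR adjusted p = 0.801), and its within-group spread was larger than that of only 5.54% of genes. Leaving out wild-type MEK replicate 1 or 3 turned the sign (-0.02 and -0.0024).

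Per unit of length, however, Lis-1 read higher in every MEK F53S library. Its TPM, a share of all transcripts in which the authors' quantification divides reads by the length of the transcripts they are assigned to, were 267, 256 and 261 in MEK F53S, against 214, 209 and 194 in wild-type MEK. Those groups did not overlap, and limma on log2(TPM + 1) gave a log2 fold change of 0.34 with adjusted p = 0.0654 for genes with a mean TPM of at least 1, and 0.0484 with no filter, where 13.3% of all genes were called. The median of all genes was 0.12 and 0.09 in these fits, and 65.7% and 62.9% of their calls were higher. In TPM the groups lay apart for Lis-1 and Klc, 2 of the 7 genes. The share over all genes was not computed in TPM and was 42.3% in CPM, so 2 of 7 is not shown to be unusual. The length that links reads and TPM, set relative to the median of 1-transcript genes in each library, was 1808, 1932 and 1850 bases in MEK F53S, against 2076, 2338 and 2215 bases in wild-type MEK. That relative length was shorter in all 3 MEK F53S libraries, a mean difference of -15.7% (exact permutation p = 0.1, two-sided, the smallest that 3 against 3 allows, and 0.233 adjusted over the 7 genes). Khc and Klc also had shorter relative lengths in all MEK F53S libraries (differences of -1.68% and -4.56%), and Khc has only 1 annotated transcript. The gene has 4 annotated transcripts of 1675 to 3292 bases, and these tables do not list them one by one. Before that division the implied lengths were 1936, 2064 and 2006 bases in MEK F53S and 1977, 2031 and 2107 bases in wild-type MEK, so the groups overlapped. The divisor itself differed by group, at 1.07, 1.07 and 1.08 times the mean in MEK F53S and 0.952, 0.869 and 0.951 in wild-type MEK, and its part in the Lis-1 values was not tested. The length column as deposited went the other way, at 1431, 1421 and 1445 bases in MEK F53S and 1387, 1334 and 1339 bases in wild-type MEK (a difference of 5.85%, exact permutation p = 0.1, and 0.467 adjusted over the 7 genes). That column lies under the shortest annotated transcript of Lis-1 and could not be matched to its reads and TPM. With an offset for the implied length in edgeR, the log2 fold change was 0.23 (adjusted p = 0.157).

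The intermediate chain gene sw (FBgn0003654, chromosome X, 20227961 to 20236382, minus strand) ties the dynein motor to its cargo side and to dynactin, and it was the scarcest of the 7 by reads. Reads assigned to it came to 81.6, 55.6 and 67.7 CPM in MEK F53S, against 54.0, 75.1 and 57.8 CPM in wild-type MEK. No order of the groups can be read from these values, which interleave. The means were 68.3 ± 13.0 CPM in MEK F53S and 62.3 ± 11.3 CPM in wild-type MEK (SD, n = 3 each; fold 1.097, 95% interval 0.827 to 1.45, log2 fold change 0.13 ± 0.18 SE, edgeR adjusted p = 0.632), and without MEK F53S replicate 1 the sign turned (-0.01).

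The Sdic copies, which arose from fused pieces of sw and a neighbouring gene, lie next to sw on the X chromosome, and reads from shared sequence are split between them by estimation. Together the 7 listed copies (Sdic1 to Sdic4 and SdicA to SdicC, from 20174217 to 20225020) held 137, 133 and 113 CPM in MEK F53S, against 154, 147 and 143 CPM in wild-type MEK. Every MEK F53S library was lower (exact permutation p = 0.1, two-sided, the smallest that 3 against 3 allows). The copies took more reads than sw in every library, 62.6 to 70.6% of the joint total in MEK F53S and 66.2 to 74.0% in wild-type MEK. Summed with sw, the family stood at 218, 189 and 181 CPM in MEK F53S, against 208, 222 and 201 CPM in wild-type MEK. These sums overlapped, and when the copies were joined into 1 row the log2 fold change was -0.10 (edgeR adjusted p = 0.567), opposite in sign to that of sw alone.

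Single copies differed far more than the sum, and since the copies are nearly identical their values are uncertain. Sdic3 had 22.5, 3.63 and 9.55 CPM in MEK F53S, against 0, 0.323 and 0 CPM in wild-type MEK, and was called (edgeR adjusted p = 0.00194). Sdic1 had 6.88 ± 1.72 CPM in MEK F53S and 1.56 ± 0.569 CPM in wild-type MEK (SD, n = 3 each; log2 fold change 2.14, edgeR adjusted p = 0.00361). Sdic4 went the other way, with 1.38, 14.1 and 2.89 CPM in MEK F53S against 14.8, 32.9 and 25.7 CPM in wild-type MEK, and missed the threshold (edgeR adjusted p = 0.0598), which it passed without MEK F53S replicate 2 (0.00354) or wild-type MEK replicate 1 (0.0355). SdicB had 31.5 ± 12.6 CPM in MEK F53S and 49.9 ± 8.93 CPM in wild-type MEK (log2 fold change -0.66, edgeR adjusted p = 0.0887). DESeq2 called SdicB lower (-0.67, adjusted p = 0.0361), as did edgeR without MEK F53S replicate 2 (-1.04, adjusted p = 0.00893). The most abundant copy, Sdic2, had 71.0 ± 9.59 CPM in MEK F53S and 72.0 ± 5.26 CPM in wild-type MEK, and SdicA was at 0 in all libraries. Which copies a fly line carries can also differ between lines, and its part in these values was not tested.

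**Figure D2:**
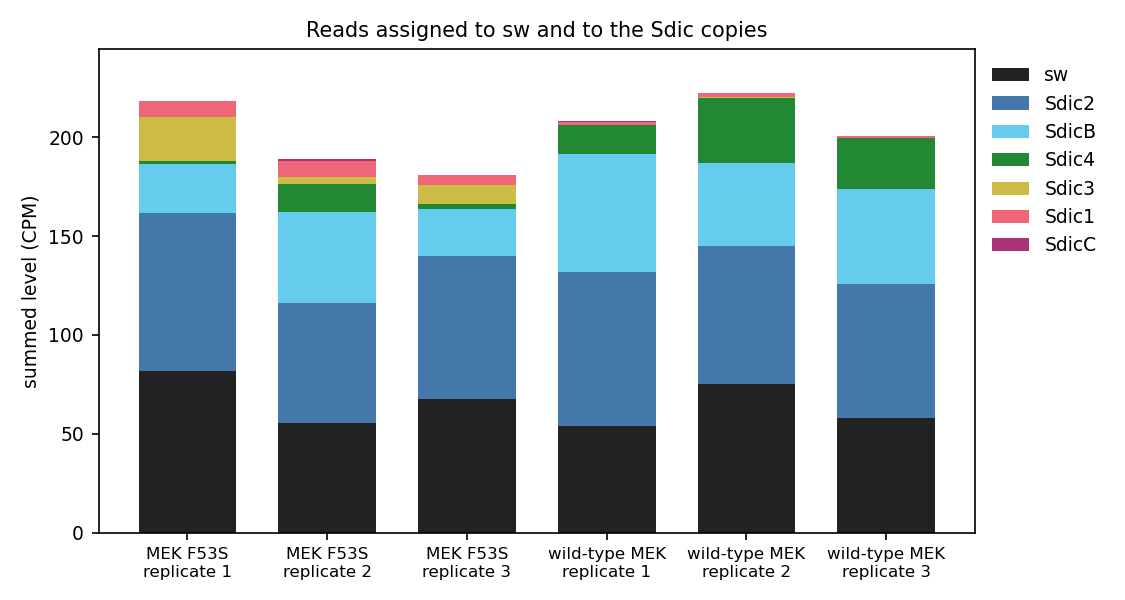
Reads assigned to sw (black, bottom) and to 6 Sdic copies (colours) as stacked TMM-normalised CPM (y axis, from 0) in each library, MEK F53S left and wild-type MEK right. The stacks reach 181 to 218 CPM in MEK F53S and 201 to 222 CPM in wild-type MEK, while Sdic3 (yellow) is 3.63 to 22.5 CPM in MEK F53S and at most 0.323 CPM in wild-type MEK, and Sdic4 (green) is 14.8 to 32.9 CPM in wild-type MEK, against 1.38 to 14.1 CPM in MEK F53S.

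The kinesin-1 chains had opposite signs and groups that did not overlap in CPM. Khc (FBgn0001308, chromosome 2R, 16266960 to 16271971, minus strand, with 81857 bases between it and the end of Lis-1) encodes the heavy chain that walks on the microtubule. Its level was 179.7, 190.5 and 172 CPM in MEK F53S, against 206, 219.5 and 241 CPM in wild-type MEK. Every MEK F53S library was below every wild-type MEK library, with means of 181 ± 9.17 CPM and 222 ± 17.7 CPM (SD, n = 3 each). The fold was 0.814 (95% interval 0.684 to 0.970, log2 fold change -0.30 ± 0.11 SE) and missed the threshold (edgeR adjusted p = 0.0816, DESeq2 adjusted p = 0.0770). Over the 20 alternative fits the log2 fold change of Khc ran from -0.38 to -0.08. In TPM the groups of Khc overlapped (133, 152 and 128 in MEK F53S, against 151, 156 and 172 in wild-type MEK). Those of BicD overlapped too (144, 183 and 154 TPM in MEK F53S, against 172, 173 and 195 in wild-type MEK).

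Klc (FBgn0010235, chromosome 3L, 12746616 to 12750056, minus strand) encodes the light chain, which binds many cargoes of the motor and holds it folded when idle. It had 148, 125 and 125 CPM in MEK F53S, against 123, 105 and 103 CPM in wild-type MEK. Every MEK F53S library was above every wild-type MEK library, although wild-type MEK replicate 1 came close to the lower MEK F53S libraries. The means were 133 ± 13.2 CPM in MEK F53S and 110.2 ± 11.3 CPM in wild-type MEK (SD, n = 3 each), a fold of 1.20 with a 95% interval of 0.981 to 1.48 (log2 fold change 0.27 ± 0.13 SE, edgeR adjusted p = 0.166). With library size alone as the scaling, which moved the median of all genes to 0.26, Klc was called (0.48, adjusted p = 0.0243; 30.3% of all genes were). In exons, 155 bases of Klc (7.51%) overlap CG32109 on the other strand, and the sources used here do not say whether counting used strand.

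Set against each other inside a library, the chains of kinesin-1 gave a ratio whose groups did not overlap. Klc over Khc in TPM was 1.08, 0.856 and 0.960 in MEK F53S, against 0.772, 0.602 and 0.542 in wild-type MEK. The mean ratio was 0.966 ± 0.113 in MEK F53S and 0.639 ± 0.119 in wild-type MEK (SD, n = 3 each). Counts per base of the deposited effective length, averaged over libraries for each gene, gave 2.78 ± 0.312 in MEK F53S and 1.89 ± 0.334 in wild-type MEK. Those groups could not overlap, since by CPM Klc was higher and Khc lower in every MEK F53S library. That ratio is thus no separate evidence. The higher ratios per base cannot say which chain is the more abundant. The deposited lengths of Klc, 615 to 667 bases, lie under its shortest annotated transcript of 1841 bases. Its implied effective length was 2.76 to 2.99 times the deposited one, whereas for Khc they were nearly equal. In TPM the difference in Klc over Khc was 0.61 on the log2 scale (exact permutation p = 0.1, two-sided, the smallest that 3 against 3 allows, and 0.5 adjusted over the 5 ratios computed). It lay between 0.50 and 0.75 with any 1 library left out. Egl over BicD was 0.729, 0.831 and 0.741 in MEK F53S, against 0.792, 0.393 and 0.336 in wild-type MEK, so that wild-type MEK replicate 1 again sided with the MEK F53S libraries (log2 difference 0.70, exact permutation p = 0.3, and 1.08 without that library). Lis-1 over Dhc64C (11.2, 5.74 and 9.57 in MEK F53S, against 5.44, 6.999 and 6.58 in wild-type MEK), sw over Dhc64C and kinesin-1 over Dhc64C overlapped too (log2 differences 0.43, 0.33 and 0.13, exact permutation p = 0.3, 0.5 and 0.7).

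**Figure D3:**
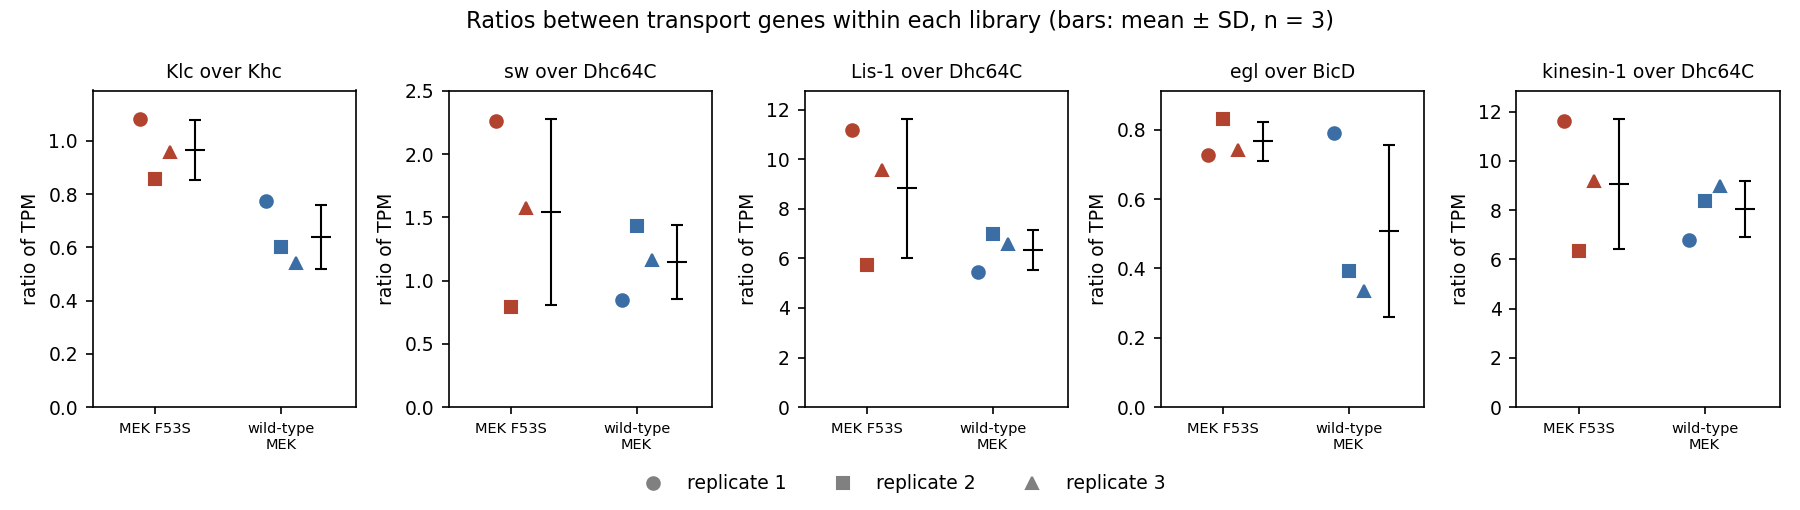
Ratio of TPM between named transport genes within each library (y axes, from 0), MEK F53S red and left, wild-type MEK blue and right, with symbols for the replicate number and black bars for the mean ± SD (n = 3). Klc over Khc is the 1 of 5 ratios whose groups do not overlap, at 0.856 to 1.08 in MEK F53S and 0.542 to 0.772 in wild-type MEK.

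Summed over the machinery, the groups overlapped. All 7 together held 1378, 1527 and 1365 CPM in MEK F53S, against 1505, 1453 and 1449 CPM in wild-type MEK (exact permutation p = 0.5). The adaptors summed to 625 ± 74.3 CPM in MEK F53S and 662 ± 29.3 CPM in wild-type MEK, and kinesin-1 to 313 ± 15.6 CPM and 332 ± 10.1 CPM (SD, n = 3 each; exact permutation p = 0.5 and 0.2).

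Ordered by TPM, which divides reads by transcript length, Lis-1 had the highest mean and Dhc64C the lowest in both groups. This order holds for TPM only, since it rests on the lengths used. By counts per base of the deposited effective length, Klc lay above Khc and sw above Lis-1 in every library. Which scale gives the true order of abundance was not tested. The place of sw also depends on how reads were split between it and the Sdic copies by estimation. In MEK F53S the means were 261 ± 5.22 TPM for Lis-1, 160.3 ± 20.1 for BicD, 138 ± 13.0 for Khc, 132 ± 10.8 for Klc, 124 ± 24.9 for egl, 44.1 ± 9.32 for sw and 31.9 ± 11.2 for Dhc64C (SD, n = 3). Neighbours in that order were apart only between Lis-1 and BicD and between egl and sw, while BicD overlapped Khc, Khc overlapped Klc, Klc overlapped egl, and sw overlapped Dhc64C. In wild-type MEK the means were 206 ± 10.1 TPM for Lis-1, 180.3 ± 13.0 for BicD, 159.8 ± 11.2 for Khc, 101 ± 13.1 for Klc, 90.0 ± 40.1 for egl, 36.8 ± 5.05 for sw and 32.9 ± 5.55 for Dhc64C (SD, n = 3). There the breaks lay between Khc and Klc and between egl and sw, whereas Lis-1 overlapped BicD, BicD overlapped Khc, Klc overlapped egl and sw overlapped Dhc64C. Among all genes tested, the mean TPM of Lis-1 was at percentile 91.3 in MEK F53S and 88.6 in wild-type MEK, and that of Dhc64C at 36.1 and 41.0.

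Wild-type MEK replicate 1 decided whether 3 of the genes were called. Without it, edgeR called BicD lower in MEK F53S (log2 fold change -0.37, adjusted p = 0.0242), Khc lower (-0.38, adjusted p = 0.0252) and egl higher (0.53, adjusted p = 0.0233). That made 3 of 7 called, beside 33.8% of all genes in the same fit. No other library, left out alone, gave a call for any of the 7, and the range of log2 fold changes over the 6 such fits was -0.37 to -0.23 for BicD, -0.38 to -0.25 for Khc, 0.10 to 0.53 for egl and 0.18 to 0.32 for Klc. In each of those fits with a library missing, the signs of BicD, Khc, egl and Klc held.

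**Figure D4:**
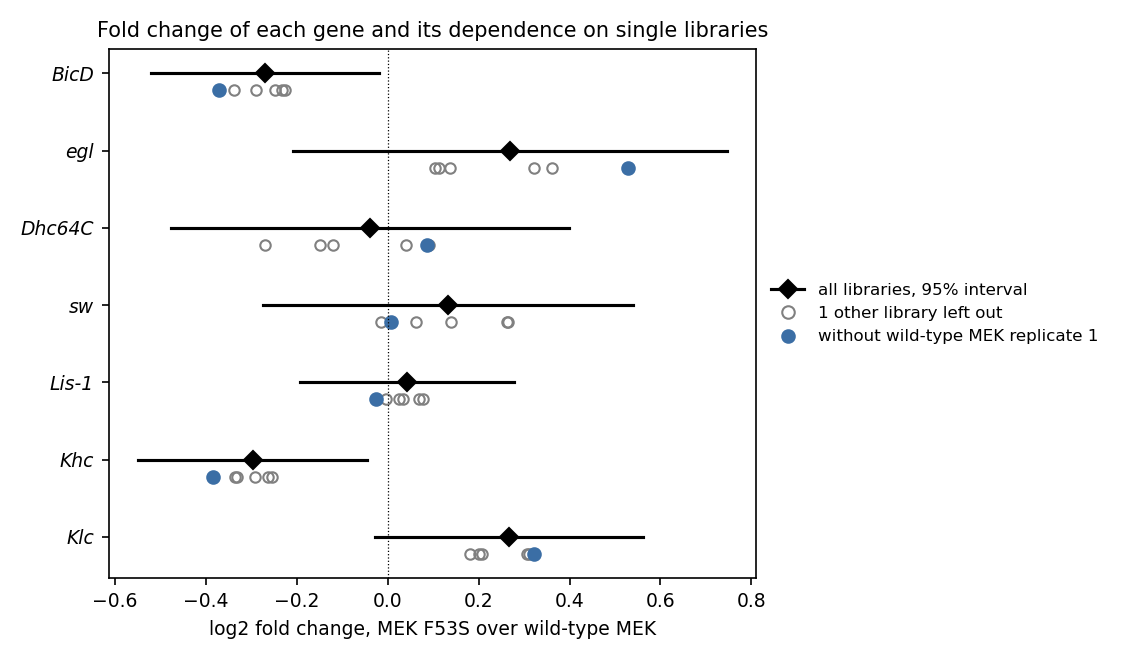
Log2 fold change of MEK F53S over wild-type MEK (x axis) for each gene from all 6 libraries with its 95% interval (black), with 1 library left out (grey circles), and without wild-type MEK replicate 1 (blue). The blue points of BicD, Khc and egl lie farthest from 0, at -0.37, -0.38 and 0.53.

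Across the 6 libraries, BicD and Khc had the most alike profiles of any pair among the 7. The root mean square distance of their log2 CPM, each centred on its own mean, was 0.046, and the next closest pair, sw and Lis-1, was at 0.165. The farthest pair was egl and sw, at 0.470: in MEK F53S replicate 2 and wild-type MEK replicate 1 egl stood above its own mean and sw below. Outside the 7, the genes nearest to BicD by the same measure were l(1)G0196, the kinase gene Lk6 and Wnt5 (0.028, 0.028 and 0.036). Nearest to Khc were for, which encodes a cGMP-dependent kinase and was itself called (log2 fold change -0.35, edgeR adjusted p = 0.0276), the ubiquitin ligase gene Smurf and the junction gene cno (0.028, 0.032 and 0.032). For egl they were Capr, CG3065 and CG13784 (0.036, 0.039 and 0.048), and for Dhc64C garz, Sos and Setd3 (0.053, 0.054 and 0.058). For sw they were mRpL1, CG33774 and RpL8 (0.043, 0.045 and 0.070), for Lis-1 Fdx1, RalGPS and eRF1 (0.018, 0.029 and 0.029), and for Klc Fnta, GstO1 and CG3634 (0.046, 0.049 and 0.054). Each likeness is over 6 libraries only, and is a description.

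The wider pathway was read from 116 other tested genes in lists by role, of which 14 rose and 21 fell in MEK F53S, 30.2% called beside 25.2% of all genes. Dynactin, the complex that makes dynein processive, had a median log2 fold change of 0.47, against 0.05 for all genes, and 3 of its 10 genes rose with 0 falling, where 12.3% of all genes rose. DCTN1-p150, which encodes the large subunit that binds the dynein intermediate chain and the microtubule, had 113, 155 and 124 CPM in MEK F53S, against 99.4, 63.6 and 66.2 CPM in wild-type MEK. Its groups did not overlap (log2 fold change 0.78 ± 0.20 SE, edgeR adjusted p = 0.0181). Arp1, the actin-related protein of the dynactin filament, had 66.8, 83.0 and 71.6 CPM in MEK F53S, against 50.9, 44.8 and 35.0 CPM in wild-type MEK (0.76 ± 0.17 SE, adjusted p = 0.0104). The filament's capping protein gene cpb had 105, 131 and 122 CPM in MEK F53S, against 79.0, 71.7 and 72.5 CPM in wild-type MEK (0.68 ± 0.13 SE, adjusted p = 0.00545). Its partner cpa had 270.5 ± 14.4 CPM in MEK F53S and 203 ± 35.0 CPM in wild-type MEK and missed the threshold (0.41, adjusted p = 0.0511), as did DCTN2-p50 and DCTN3-p24 (0.27 and 0.12, adjusted p = 0.229 and 0.709). The calls of Arp1 and cpb held with any 1 library left out. That of DCTN1-p150 was lost without MEK F53S replicate 2 or 3 or wild-type MEK replicate 2 or 3 (log2 fold changes 0.63, 0.81, 0.64 and 0.66, adjusted p up to 0.0797). In dynactin there were 5 rises when wild-type MEK replicate 1 was left out (16.9% of all genes rose in that fit), and 2 when any of MEK F53S replicates 2 and 3 and wild-type MEK replicates 2 and 3 was. DESeq2 gave 5 rises (13.0% of all genes), and edgeR gave 5 with upper-quartile factors (14.6% of all genes) and 6 with library size only (23.6% of all genes). In DESeq2 the rise of cpa was among them (adjusted p = 0.0332).

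Of the other subunits of dynein, edgeR called 0 of 4 tested, beside 25.2% of all genes. An unadjusted p under 0.05 was found for 1 (robl, edgeR unadjusted p = 0.0344), beside 38.3% of all genes. DESeq2 called that 1, beside 26.7% of all genes. The light chain gene ctp, whose product Egl also binds, had 861 ± 113 CPM in MEK F53S and 861 ± 37.6 CPM in wild-type MEK (SD, n = 3 each). Dlic, the light intermediate chain gene, had 289.6 ± 36.2 CPM in MEK F53S and 243 ± 27.03 CPM in wild-type MEK, and robl 146 ± 16.5 and 205 ± 57.6 CPM (log2 fold changes 0.25 and -0.49, edgeR adjusted p = 0.186 and 0.101). DESeq2 called robl lower (-0.51, adjusted p = 0.0425), as did edgeR when wild-type MEK replicate 1 was omitted (-0.74, adjusted p = 0.00249), and Dlic was called higher with library size only (0.47, adjusted p = 0.0202). Axonemal dynein heavy chains, which drive cilia and sperm tails, were near absent. They summed to 9.80 to 14.3 CPM in MEK F53S and 11.4 to 15.5 CPM in wild-type MEK, with 5 of 11 at 0 and 0 of 3 tested genes called, and Dhc36C held most of the reads.

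Among 11 regulators and activating adaptors of dynein, 0 rose and Nup358 fell, beside 12.3% and 12.9% of all genes. Nup358, a nuclear pore gene whose human counterpart binds a BicD relative, had 819, 1053 and 818 CPM in MEK F53S, against 1547, 1700 and 1906 CPM in wild-type MEK. The groups were far apart (log2 fold change -0.94 ± 0.13 SE, edgeR adjusted p = 0.00113), also with any 1 library left out. Girdin, nudE and rod were not called (-0.29, -0.15 and 0.01), though Girdin was without MEK F53S replicate 2 (-0.40, adjusted p = 0.0270). Among the fits that omit a library, 2 genes of this list rose where that was wild-type MEK replicate 1, and 2 fell where it was MEK F53S replicate 2.

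Of 11 adaptors and regulators of kinesin-1, 1 rose and 2 fell, beside 12.3% and 12.9% of all genes. Tm1, whose product links the heavy chain to oskar RNA, had 666 ± 9.23 CPM in MEK F53S and 577 ± 61.4 CPM in wild-type MEK and was not called by edgeR (log2 fold change 0.21, adjusted p = 0.187) or DESeq2. On the TPM scale limma called it higher (0.43, adjusted p = 0.0376), as did edgeR with the offset for the implied length (0.31, adjusted p = 0.0441) and with library size only (0.42, adjusted p = 0.0146). Nor were ens, a microtubule-binding activator of the motor (0.04), and milt, its mitochondrial adaptor (-0.05). The called fall of jvl, a gene of microtubule organisation in the oocyte, was seen as 255, 296 and 256 CPM in MEK F53S against 416, 495 and 477 CPM in wild-type MEK (-0.78 ± 0.12 SE, adjusted p = 0.00165), and it held with any 1 library left out. Patronin, which caps microtubule minus ends, fell by 0.55 and the linker gene shot rose by 0.40 (adjusted p = 0.0172 and 0.0433). Leaving out MEK F53S replicate 3 or wild-type MEK replicate 2 or 3 ended both calls, as did leaving out MEK F53S replicate 1 for Patronin and MEK F53S replicate 2 for shot (adjusted p up to 0.0730 and 0.201).

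**Figure D5:**
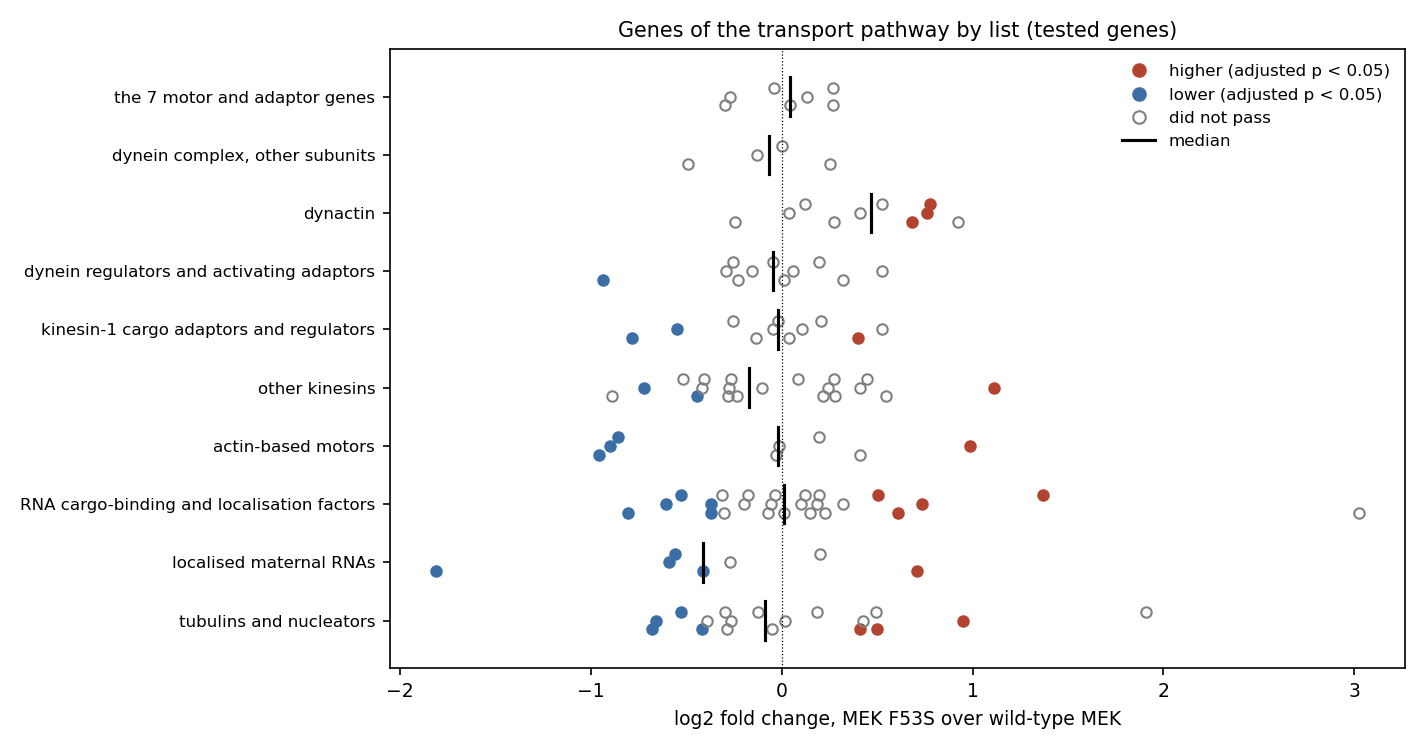
Log2 fold change of MEK F53S over wild-type MEK (x axis) for every tested gene of the transport lists, with the 7 motor and adaptor genes in the top row, filled points for genes past an adjusted p of 0.05 (red higher, blue lower) and black bars for the median. The 7 genes sit within 0.30 of 0 with no filled point, while dynactin has its median at 0.47 and no blue point.

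Of 20 other kinesins tested, 1 rose and 2 fell, where 12.3% of all genes tested rose and 12.9% fell. Kap3, a subunit of kinesin-2, rose (99.9 ± 26.4 CPM in MEK F53S and 46.1 ± 25.7 CPM in wild-type MEK, log2 fold change 1.11, edgeR adjusted p = 0.0398). DESeq2 did not call Kap3, and with a library left out it was called only without MEK F53S replicate 3 or wild-type MEK replicate 1 (1.31 and 1.64, against 0.86 to 1.07 in the other fits). The mitotic kinesin gene cana fell (305 ± 55.9 CPM in MEK F53S and 504 ± 21.8 CPM in wild-type MEK, -0.72, adjusted p = 0.00496), in all 6 fits with a library left out. Klp31E fell by 0.44 (adjusted p = 0.0203), called only without MEK F53S replicate 2 or wild-type MEK replicate 1 among those fits (adjusted p up to 0.0978). The most abundant others, Klp10A, Klp61F and cmet, were not called by edgeR with all libraries (0.28, -0.27 and -0.41). DESeq2 called cmet (-0.42, adjusted p = 0.0421), and so did edgeR without MEK F53S replicate 2 (-0.59, adjusted p = 0.00633). Klp10A was called without wild-type MEK replicate 1 (0.36, adjusted p = 0.0465) and with library size only (0.49, adjusted p = 0.0180).

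Among 8 actin-based motor genes, 1 rose and 3 fell, beside 12.3% and 12.9% of all genes. The myosin V gene didum, whose product acts with kinesin in placing oskar, had 149, 197 and 134 CPM in MEK F53S, against 110.3, 70.7 and 61.1 CPM in wild-type MEK (log2 fold change 0.99 ± 0.23 SE, edgeR adjusted p = 0.0125), and was not called without wild-type MEK replicate 2 (0.88, adjusted p = 0.0518). The myosin VIIa gene ck had 312 ± 23.9 CPM in MEK F53S and 604 ± 39.7 CPM in wild-type MEK (-0.96, adjusted p = 0.000434), in all 6 fits with a library left out. Myo10A and Myo61F fell by 0.86 and 0.90 (adjusted p = 0.0176 and 0.0437). Without MEK F53S replicate 1 or 3 neither was called, and Myo61F was not called without wild-type MEK replicate 2 or 3 either (adjusted p up to 0.130).

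Genes for proteins that bind the travelling RNAs had 4 rises and 5 falls among 25 genes, where 12.3% of all genes rose and 12.9% fell. The CPEB gene orb, a regulator of translation of localised RNAs, had 637, 943 and 630.2 CPM in MEK F53S, against 396, 236 and 223 CPM in wild-type MEK (log2 fold change 1.37, edgeR adjusted p = 0.00336). Imp rose by 0.51 (adjusted p = 0.0256). The hnRNP genes sqd and heph fell by 0.80 and 0.60, and the double-stranded RNA-binding gene stau, which travels with oskar and bicoid RNA, by 0.37. Mago, of the exon junction complex that oskar transport needs, fell by 0.53. The calls of orb, sqd and heph held with any 1 library left out. Those of Imp and stau were lost in 4 of those 6 fits each, the exceptions being the omission of wild-type MEK replicate 1 and of MEK F53S replicate 1 (Imp) or 2 (stau), and that of mago without MEK F53S replicate 3 or wild-type MEK replicate 2 (adjusted p up to 0.112, 0.119 and 0.0692). Named here after their values were seen, Fmr1 and exu rose by 0.73 and 0.61 and fs(1)K10, needed to localise gurken RNA, fell by 0.37. Without wild-type MEK replicate 1 all 3 were called, exu also without MEK F53S replicate 3, and none was called in the other such fits (adjusted p up to 0.105, 0.162 and 0.147). The abundant me31B, tral and Hrb27C were not called (0.10, 0.15 and -0.04).

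Maternal RNAs on the list of localised messages differed from one another. The list mixes cargoes of these motors, such as osk, bcd and grk, with RNAs enriched at the posterior pole in other ways, and with hb, whose maternal RNA is spread through the egg. Of 7 tested, bcd, gcl, CycB and hb fell, grk rose, and osk and pgc were not called, where 12.9% of all genes fell and 12.3% rose. The kinesin cargo osk had 2228, 3071 and 2149 CPM in MEK F53S, against 2348, 2320 and 1815 CPM in wild-type MEK, with overlap (log2 fold change 0.20, edgeR adjusted p = 0.372). Of the dynein cargoes, bcd had 224, 274 and 269.9 CPM in MEK F53S, against 852, 954 and 892 CPM in wild-type MEK (-1.81 ± 0.12 SE, adjusted p = 1.65e-05). The signal gene grk went the other way, with 130.3, 97.0 and 122 CPM in MEK F53S, against 67.3, 76.4 and 70.6 CPM in wild-type MEK (0.71 ± 0.14 SE, adjusted p = 0.00715). The falls of gcl, CycB and hb were 0.56, 0.41 and 0.59, of which hb was called only without MEK F53S replicate 2 or wild-type MEK replicate 1 among the fits with a library left out (adjusted p up to 0.113). These are amounts of RNA in whole eggs, and position within the egg was not measured.

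The microtubule tracks had 3 rises and 4 falls among 18 tubulin and nucleation genes, where 12.3% of all genes rose and 12.9% fell. The rises were tubulins, alphaTub67C (334 ± 15.7 CPM in MEK F53S and 173 ± 68.0 CPM in wild-type MEK, log2 fold change 0.95), alphaTub84B (0.50) and betaTub56D (0.41), with edgeR adjusted p = 0.0143, 0.00866 and 0.0346. The falls were of microtubule-binding proteins, CLIP-190 (-0.68), tacc (-0.66) and chb (-0.53), and of Grip163 (-0.42), a gamma-tubulin ring gene, the last named after its values were seen. Without wild-type MEK replicate 2 both alpha-tubulin calls were lost (adjusted p = 0.0571 and 0.0510). With a library left out, betaTub56D was called only without MEK F53S replicate 2, and Grip163 only without that library or wild-type MEK replicate 1 (adjusted p up to 0.144 and 0.152), whereas CLIP-190, tacc and chb were called in all 6 fits. The abundant msps, Grip84 and Eb1 were not called (-0.13, -0.39 and -0.05), though msps and Grip84 were without MEK F53S replicate 2 (-0.33 and -0.58, adjusted p = 0.0315 and 0.0493).

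How many of these 35 pathway calls held depended on the scale. DESeq2 also called 34, all but Kap3. Limma on log2(TPM + 1) called 16 of them and lost 19, among them sqd, heph, cana, gcl, CycB, tacc, chb and CLIP-190, while those of DCTN1-p150, Arp1, cpb, Nup358, jvl, didum, ck, orb, bcd and grk held. The offset for the implied effective length in edgeR lost 11, including stau, sqd, mago, hb and alphaTub84B, and scaling by library size only lost 10, including Patronin, CycB, hb and chb.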

How the data were processed

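RNA-seq of 6 libraries was read from 1 gene table each. Per the submitters' processing notes, the authors used Salmon 0.8.2 and the build dm6, and the sources used here do not state the annotation or the strand setting. The estimated counts deposited by the authors need not be whole, are not scaled for depth, and were rounded here. TPM, as deposited by the authors, divides reads by transcript length and gives each library the same total. The tables also list a length and an effective length, other columns deposited by the authors, in bases. For 2412 of 2416 checked genes with 1 annotated transcript the effective length equalled counts over TPM (times a library constant) within 5%. For 2897 of 4084 genes with several it was at least 1.5 times too small in all libraries, and for 6 of the 7 genes the listed length was under the shortest annotated transcript. An implied effective length, counts over TPM, was therefore computed, a choice made after seeing the data. Symbols matched 13831 features and 112 had none. Gene positions come from an Ensembl annotation of the dm6 assembly. No sequence was used.

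Genes were filtered with filterByExpr of edgeR 4.0.16 (minimum count 10, total 15), scaled with TMM and compared with its quasi-likelihood test in R 4.3.3, with Benjamini-Hochberg adjustment over 7539 genes and a threshold of 0.05. The 7539 tested genes held at least 99.9% of counts. CPM are TMM-normalised, SE come from the F statistic, and intervals are 95%. Ratios, sums and lengths were tested by exact two-sided permutation over libraries. On 3 simulated draws of these 7539 genes for MEK F53S over wild-type MEK, the test recovered 63.7% at a 2-fold change and 23.7% at a 1.5-fold change, and 3.32% of calls were false. Far fewer genes were changed in the draws than were called in the data, so these shares need not hold for the data. Replicates differed beyond sampling noise (chi-square per degree of freedom at least 29.4). Alternatives were other scalings and filters, DESeq2 1.42.0, limma 3.58.1 on log2(TPM + 1) or log2(TPM + 0.1), length offsets, a replicate block, no mitochondrial genes, summed sw and Sdic, and each library left out. The 7 genes, the 11 pathway and 6 marker lists (18 symbols unmatched) and the tests were chosen with earlier results of these data known. Named were the 7 genes, the Sdic copies, up to 6 called genes per list by smallest p with up to 3 more by highest CPM, the localised maternal RNAs, and the 3 nearest profiles of each gene, besides genes stated to be chosen after their values were seen.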

Additional observations from a re-analysis of the deposited data

How the results depend on the processing

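With 3 libraries per group, changes inside the intervals above cannot be told from 0, and of the 6 libraries the omission of wild-type MEK replicate 1 gave the most calls. Calls among all genes (1900) numbered 1253 with limma on log2(TPM + 0.1), 1249 with limma on log2(TPM + 1) and no filter, and 1001 to 2614 with 1 library left out. Calls among the 7 genes (0) numbered 1 with library size only, 1 with limma and no filter, and 0 to 3 with 1 library left out. The first of these was Klc (log2 fold change 0.48) and the second Lis-1 (0.34). Calls over the pathway lists (35) numbered 20 with limma on log2(TPM + 1), where 931 of all genes rose and 487 fell. They numbered 13 and 11 with limma on log2(TPM + 0.1) and with no filter, and 17 to 47 with 1 library left out. Calls over all genes also varied between these fits, as given above. The share of calls that were higher was 48.9%, against 77.9% with library size only and 65.7% with limma on log2(TPM + 1). Dhc64C turned to 0.0042 with upper-quartile factors and 0.17 with library size only, and sw to -0.10 when summed with Sdic. With 1 library left out, log2 fold changes ran from -0.37 to -0.23 for BicD, 0.10 to 0.53 for egl, -0.27 to 0.0904 for Dhc64C, -0.0145 to 0.26 for sw, -0.0248 to 0.0774 for Lis-1, -0.38 to -0.25 for Khc and 0.18 to 0.32 for Klc. The log2 ratio differences ran from -0.0069 to 0.75 for sw over Dhc64C, from -0.068 to 0.37 for kinesin-1 over Dhc64C, from 0.23 to 0.71 for Lis-1 over Dhc64C, from 0.46 to 1.08 for egl over BicD and from 0.50 to 0.75 for Klc over Khc. Between the listed and the implied length the sign of the percent difference turned for egl (-11.4 implied), Dhc64C (6.31), sw (-3.99), Lis-1 (-15.7) and Klc (-4.56; listed -0.37 to 3.76 with 1 library left out). The cause of these changes was not tested. Correlations of deviations between same-numbered libraries were -0.058, -0.12 and 0.11, against -0.13 to 0.18 between libraries of unlike number. With so few libraries, these values cannot tell whether same-numbered libraries shared a collection. With the replicate number as a block, 1486 genes and 0 of the 7 were called, 744 higher and 742 lower, and the pathway lists had 29 calls.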
